A study of Elaeis guineensis with 58 samples.

Results

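The genes described here are 100 oil palm (Elaeis guineensis) genes whose level in the spear leaf stepped in 1 direction across ortets with zero, low and high past yield of embryoid lines. They were chosen by their own values in 20 libraries from agency L2, so those values are a description and carry no test. For each gene, CPM (counts scaled to the library total in genes) was put on the scale log2(CPM + 1) and its median was taken over the palms of each group. A gene met the rule when the step from zero to low and the step from low to high had the same sign, each was at least 0.5, and the largest median was at least 3. Of 27805 genes with a LOC identifier, among 27986 in all, 717 met the rule, and the 100 with the largest smaller step are the members. Of these, 81 stepped down (falling members) and 19 stepped up (rising members), and the first rising gene stood at rank 9.

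An ortet is a mother palm whose tissue is used to raise clones. In oil palm, pieces of young leaf are cultured to callus, some callus forms somatic embryos (embryoids), and an embryoid line is a culture that can be multiplied into plantlets. Palms differ widely in how readily their leaf explants give embryoids, and the yield of an ortet is known only after culture. The spear leaf is the youngest, unopened frond.

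RNA of the spear leaf was read by QuantSeq 3' end sequencing, which reads each captured transcript near its 3' end, so that counts do not grow with transcript length. The L2 palms were grouped by past embryoid lines as zero (0 lines, n = 6, genotype label Yangambi_A), low (1 to 89 lines, n = 6, with 4 Yangambi_B, 1 Yangambi_C and 1 Jen Avros) and high (at least 90 lines, n = 8, with 6 Jen Avros, 1 Yangambi_C and 1 Jen Avros Yangambi), all extracted with the InnuPREP kit. A second set of 6 libraries, 2 per group, was made by CTAB extraction from 6 of the same L2 palms. Agency L1 gave 32 palms, all extracted with CTAB: 15 low palms (7 Dumpy Avros, 8 Dumpy Yangambi Avros) and 17 zero palms (5 Dumpy Avros, 12 Dumpy Yangambi Avros). Each replicate was a separate palm. Every zero palm of L2 had a genotype label that no low or high palm had, so genotype and embryogenesis group cannot be told apart between them. Low and high palms were also largely split by label. Yangambi_B, the label of 4 of 6 low palms, was in no high palm, and Jen Avros was the label of 6 of 8 high palms and 1 low palm.

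Counts in genes ran between 8773354 and 15004694 per L2 InnuPREP library, between 4215872 and 7580573 per L2 CTAB library, and between 3943437 and 9685451 per L1 library. Multi-mapped reads were 12.7% ± 2.41 (SD, n = 6) of the zero libraries of L2, 15.5% ± 3.30 (SD, n = 6) of the low ones and 14.1% ± 2.38 (SD, n = 8) of the high ones. The tables used here give no product names, so no role is stated for any member and the leaf was not checked against cell type markers. In bulk tissue, fewer cells of a type and less RNA per cell cannot be told apart. Palm 2 of the zero group and palm 8 of the high group stood apart from the rest of their groups in the members' levels, and values with and without them are given below.

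By the rule, the falling members had their highest group median in the zero palms. Their median CPM there ran between 7.92 and 2074, with a median over the 81 genes of 65.2. In the low palms the median over the genes was 21.6 CPM, and in the high palms it was 6.13 CPM. Over the 81 genes the low-minus-zero step had a median of -1.45 on the log2 scale (-3.12 to -1.09), and the high-minus-low step had a median of -1.50 (-3.74 to -1.10). The rising members went the other way, with medians over the 19 genes of 6.95 CPM in zero palms, 17.5 CPM in low palms and 71.5 CPM in high palms. Their low-minus-zero step had a median of 1.28 (1.10 to 1.80), and their high-minus-low step had a median of 1.82 (1.21 to 3.15).

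LOC105046587 headed the falling members. Its lowest, median and highest CPM were 359, 2074 and 2785 in zero palms, 80.2, 265 and 492.98 in low palms, and 3.04, 18.9 and 211 in high palms. All 8 high palms lay below all 6 zero palms, and the single high palm above 100 CPM was palm 8. LOC105055554, second in the order, had 351, 1866 and 3287 CPM in zero palms, 74.8, 280 and 564 CPM in low palms, and 3.29, 20.6 and 495 CPM in high palms. Here palm 8 of the high group, at 495 CPM, overlapped both the zero and the low palms. These 2 genes were also the falling members with the highest median CPM in zero palms.

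The next 8 falling members in the order were LOC105056164, LOC105032996, LOC105036432, LOC105060284, LOC105044283, LOC105048608, LOC105050415 and LOC105048356. LOC105044283 had a lowest, median and highest CPM of 298, 525.6 and 766 in zero palms, 41.1, 129 and 506 in low palms, and 4.65, 20.8 and 99.2 in high palms. The low palms overlapped the zero palms in this gene, while the high palms lay below all zero palms. LOC105036432 had 109, 453 and 620 CPM in zero palms, 58.8, 99.7 and 185 CPM in low palms, and 10.8, 15.9 and 65.9 CPM in high palms. LOC105056164 had 14.2, 92.9 and 152 CPM in zero palms, 6.97, 16.9 and 56.4 CPM in low palms, and 1.30, 2.21 and 7.63 CPM in high palms. In both genes the high palms lay below every zero palm, and the lowest zero palm lay within the range of the low palms.

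LOC105052784 headed the rising members. Its lowest, median and highest CPM were 0.335, 1.29 and 5.71 in zero palms, 1.37, 7.21 and 20.4 in low palms, and 4.202, 70.7 and 1053 in high palms. High palm 1 gave the 1053 CPM, and the next palm below it had 184 CPM. Palm 8 of the high group, at 4.202 CPM, lay below the highest zero palm. LOC105051978 had 0.753, 1.77 and 18.4 CPM in zero palms, 5.36, 8.59 and 14.2 CPM in low palms, and 7.63, 31.7 and 61.4 CPM in high palms. The highest zero value was that of palm 2, and the other 5 zero palms lay at or below 2.65 CPM.

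Among rising members, LOC105054831 and LOC105061065 had the highest median CPM in high palms. LOC105054831 had 45.3, 64.6 and 101 CPM in zero palms, 82.2, 155 and 186 CPM in low palms, and 153, 781 and 2725 CPM in high palms, and the high palms lay above all zero palms. LOC105061065 had 25.3, 47.4 and 157 CPM in zero palms, 79.9, 170 and 331 CPM in low palms, and 152, 728 and 1898 CPM in high palms. In that gene high palm 8, at 152 CPM, lay just below zero palm 2, at 157 CPM. The other rising members among the first 10 were LOC105042016, LOC105033878, LOC105047941, LOC105050710, LOC105041542, LOC105033413 and LOC105042100. Their median CPM in high palms lay between 15.5 for LOC105042100 and 408 for LOC105047941.

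**Figure D1:**
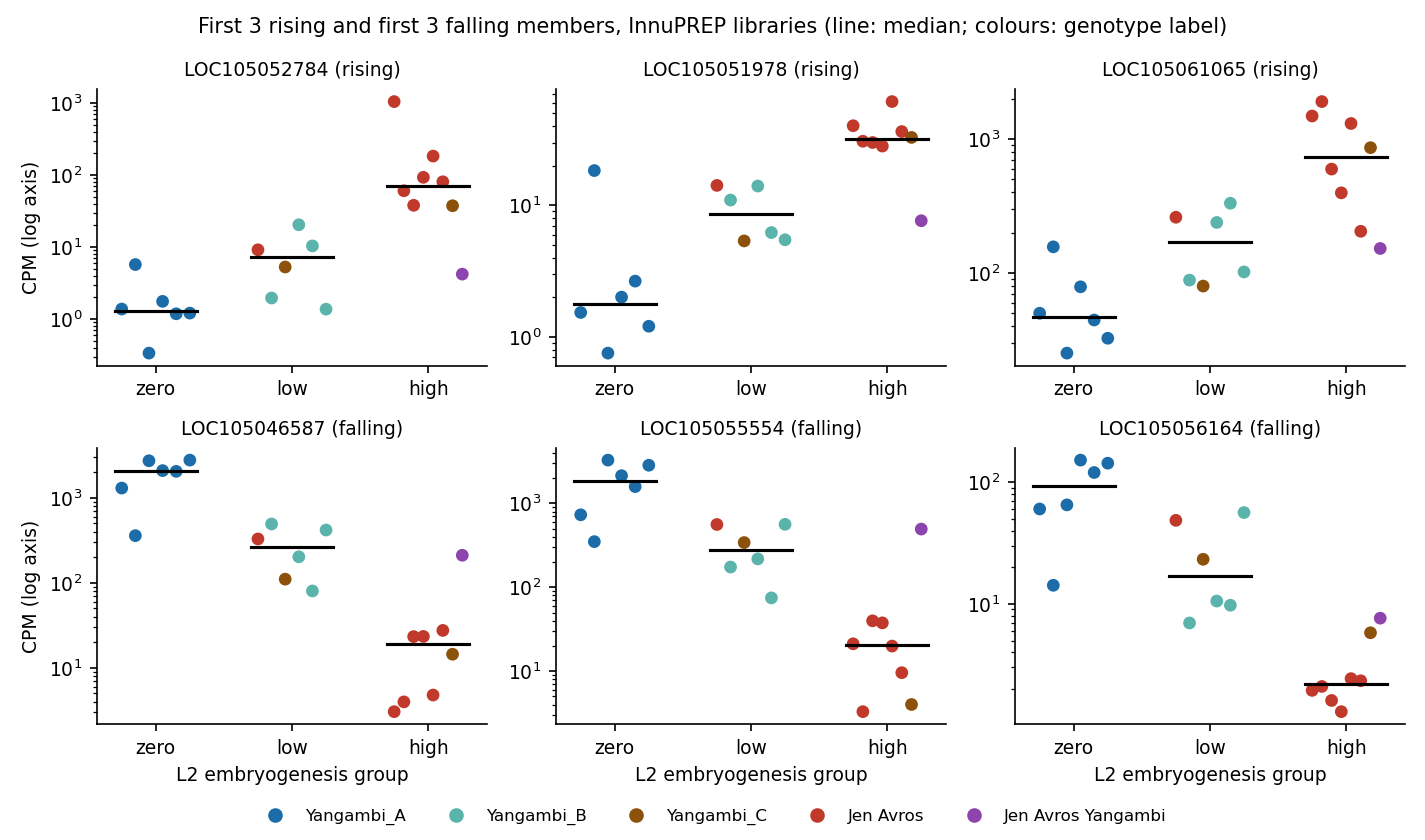
CPM (log axis) of the first 3 rising and first 3 falling members in each L2 InnuPREP library, with zero, low and high palms left to right, 1 point per palm, colour for the genotype label and a line at the group median. For LOC105046587 the 8 high palms lie between 3.04 and 211 CPM and the 6 zero palms between 359 and 2785 CPM; the purple point is high palm 8.

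The limit of the list was gradual. The last member, LOC109505719, a falling gene, had a smaller step of 1.09180, and the first gene past it, LOC105046967, also falling, had 1.08649. Of the 100 members, 96 were found in the EG11 gene table, 95 as protein coding and 1 (LOC105056899) as misc_RNA. The members found lay on 16 chromosomes, with at most 11 on any of them. A single pair lay within 100 kb of each other, the rising LOC105041542 and the falling LOC105041022, with 3 genes between them. LOC105041542 had a median of 17.0 CPM in zero palms, 42.7 CPM in low palms and 144 CPM in high palms, and LOC105041022 had 220 CPM in zero palms, 100.5 CPM in low palms and 18.3 CPM in high palms.

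High and zero palms of L2 did not overlap in 55 of the 100 members, 49 of 81 falling and 6 of 19 rising. Over 14484 genes with a largest group median of at least 3, the share without overlap was 11.6%. The rule used these values, so nothing is read from the difference. Without zero palm 2 the count was 87 members (70 falling, 17 rising) beside 16.2% of all genes, and without high palm 8 it was 75 members (63 falling, 12 rising) beside 16.5%. Low and zero palms did not overlap in 2 members, both falling, beside 1.04% of all genes. High and low palms did not overlap in 4 members, all falling, beside 2.66%.

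A member was counted on the high side of a palm when the palm's value lay beyond the midpoint of the zero and high medians, in the direction of the high group. In the zero palms 1 to 6, 3, 44, 1, 0, 1 and 0 of the 100 members were on the high side. In the low palms 1 to 6 there were 17, 39, 72, 69, 64 and 9. In the high palms 1 to 8 there were 97, 100, 99, 100, 99, 95, 97 and 70. The SD of this count over palms was 17.6 in the zero group, 27.5 in the low group and 10.1 in the high group. Low palms 3, 4 and 5 were close to high palm 8 by this count. Low palms 1, 2 and 6 had fewer members on the high side than zero palm 2. Zero palm 2 had a median over rising members of 5.18 on the log2(CPM + 1) scale, against 2.61 to 3.53 in the other zero palms. Its median over falling members was 4.53, against 5.77 to 6.45 in the others.

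**Figure D2:**
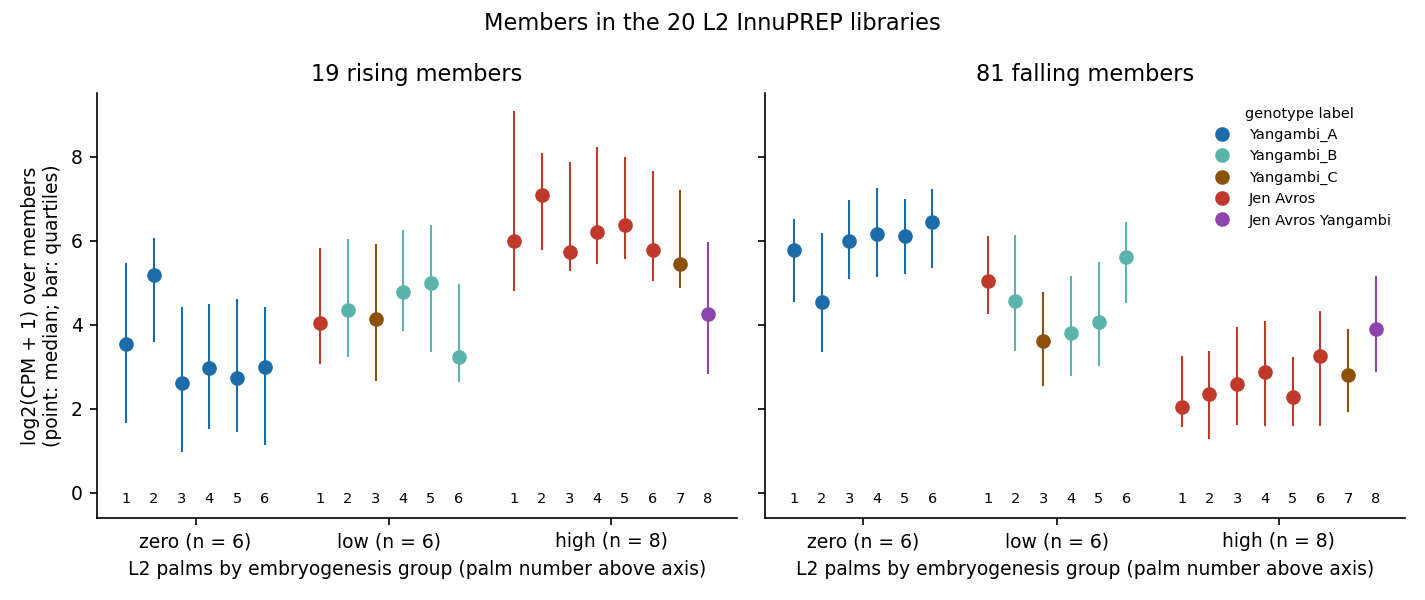
Median (point) and quartiles (bar) over the 19 rising and the 81 falling members of log2(CPM + 1) in each L2 InnuPREP palm, by embryogenesis group, with the palm number above the axis and colour for the genotype label. Zero palm 2 lies at 5.18 for rising members and 4.53 for falling members, high palm 8 at 4.25 and 3.89, and low palm 6 at 3.24 and 5.61.

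Genotype labels shared by low and high palms allowed a view inside a label. In Jen Avros, all 19 rising members had a higher median in the 6 high palms than in the 1 low palm, with a median difference of 2.25 on the log2 scale, and all 81 falling members had a lower one, with a median difference of -2.31. All 6 high palms lay on 1 side of the low palm in 91 members (16 rising, 75 falling), beside 49.6% of all 14484 genes. In Yangambi_C, with 1 high palm and 1 low palm, 17 of 19 rising members were higher in the high palm and 65 of 81 falling members were lower. The median differences there were 2.03 for rising and -0.67 for falling members. The rule used these palms too, and with 1 low palm per label there is no replicate check.

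The second set of L2 libraries asked whether the members' order held in RNA extracted another way from the same palms. By group means of log2(CPM + 1) in the CTAB libraries, 19 of 19 rising members were higher in high than in zero palms, and 81 of 81 falling members were lower. The whole order zero, low, high was kept by 13 rising and 70 falling members, and by 15 rising and 71 falling members in the InnuPREP libraries of the same 6 palms. These palms were among those the rule used, so the libraries were new and the palms were not. LOC105046587 had 264 and 1883 CPM in the CTAB libraries of zero palms 2 and 6, 64.7 and 270 CPM in those of low palms 5 and 6, and 19.8 and 155 CPM in those of high palms 3 and 8. Both high palms lay below both zero palms, and the low palms overlapped both groups.

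In the edgeR quasi-likelihood fit of the CTAB libraries, high against zero, none of the 100 members passed a Benjamini-Hochberg adjusted p of 0.05, and neither did any of the 19626 genes tested (0%). At an unadjusted p under 0.05 there were 59 members, 4 rising and higher in high palms and 55 falling and lower, beside 9.46% of all genes (3.39% higher, 6.07% lower). DESeq2 called 34 members among 343 genes, and limma-voom called 0. The median log2 fold change was 1.45 over rising members and -2.42 over falling members, against 0.01 over all genes. The rule used these palms, so nothing is read from the differences between members and all genes. The members with the smallest p were falling. LOC105060061 had 0.132 and 0.158 CPM in high palms 3 and 8, against 5.002 and 7.70 CPM in zero palms 2 and 6, a log2 fold change of -5.44 ± 0.87 (SE; edgeR, adjusted p = 0.362, 0.00281 to 0.999 over the alternatives). LOC105034931 had 40.2 and 37.8 CPM in high palms, against 160 and 147 CPM in zero palms, a log2 fold change of -2.17 ± 0.38 (SE; edgeR, adjusted p = 0.368, 0.000198 to 0.999 over the alternatives). The high and zero libraries did not overlap in either gene. With 2 libraries per group and genes picked by smallest p in this fit, nothing is read from that. The high values of LOC105060061 lay near the floor of the counts, so the size of its fold change is uncertain.

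With 2 palms per group, 1 palm moved these medians and counts. A fit without 1 palm leaves its group with a single palm, which is assumed to vary like the other groups. The rising median was 0.38 without high palm 3, 0.85 without zero palm 6 and 2.96 without zero palm 2. The falling median was -1.37 without zero palm 6. The 59 members at an unadjusted p under 0.05 became 26 without high palm 3 (beside 4.46% of genes), 26 without zero palm 6 (beside 9.31%) and 85 without zero palm 2 (beside 8.42%). LOC105052784 shows the spread: it had 30.7 CPM in the CTAB library of high palm 3 and 2.37 CPM in that of high palm 8, against 2.24 CPM in zero palm 2 and 0.525 CPM in zero palm 6.

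The members' levels differed between the CTAB and InnuPREP libraries of the same palms. Of the 100 members, 68 passed an adjusted p of 0.05 for CTAB against InnuPREP in the edgeR fit with the palm as a block, beside 56.9% of the 19172 genes tested (61.6% at an unadjusted p under 0.05, with 69 members). There were 22 members higher with CTAB (3 rising, 19 falling), beside 26.9% of genes, and 46 lower (10 rising, 36 falling), beside 29.9%. Without the block none of the members and 2875 genes were called. The median log2 fold change was -0.41 over rising and -0.13 over falling members. The CTAB libraries of L2 also had fewer counts in genes than the InnuPREP libraries of the same palms. Multi-mapped reads were 17.1% to 34.2%, against 10.2% to 19.8% in the InnuPREP libraries of those palms. The plastid share was 4.42% to 7.80%, against 2.30% to 4.41%. These differences cannot be told apart from the extraction.

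LOC105046014, a falling member, was lower with CTAB in all 6 palms. It had 26.8 CPM with CTAB against 50.5 CPM with InnuPREP in high palm 3, and 573 against 1218 CPM in zero palm 6, with a log2 fold change of -1.41 ± 0.09 (SE; edgeR, adjusted p = 1.54e-09). LOC105057272 had -1.09 ± 0.09 (adjusted p = 1.25e-08), and the rising LOC105061065 had -1.15 ± 0.10 (adjusted p = 2.55e-08). On the other side, LOC105054949 had 638 CPM with CTAB against 302 CPM with InnuPREP in zero palm 6, and a log2 fold change of 0.91 ± 0.09 (SE; edgeR, adjusted p = 2.33e-07). LOC105043853 had 0.86 ± 0.10 (adjusted p = 8.93e-07), and the rising LOC105048571 had 0.82 ± 0.10 (adjusted p = 1.27e-06). All 6 genes kept their direction in each of the 11 alternatives and lost the call without the block, where adjusted p lay between 0.165 and 0.372.

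The order of the 6 palms by members on the high side was the same with both extractions. On the high side there were 94 members with CTAB against 99 with InnuPREP in high palm 3, 59 against 70 in high palm 8, 54 against 64 in low palm 5, 17 against 9 in low palm 6, 45 against 44 in zero palm 2, and 0 against 0 in zero palm 6. The position of zero palm 2 apart from zero palm 6 and of high palm 8 apart from high palm 3 was thus present in both extractions.

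**Figure D3:**
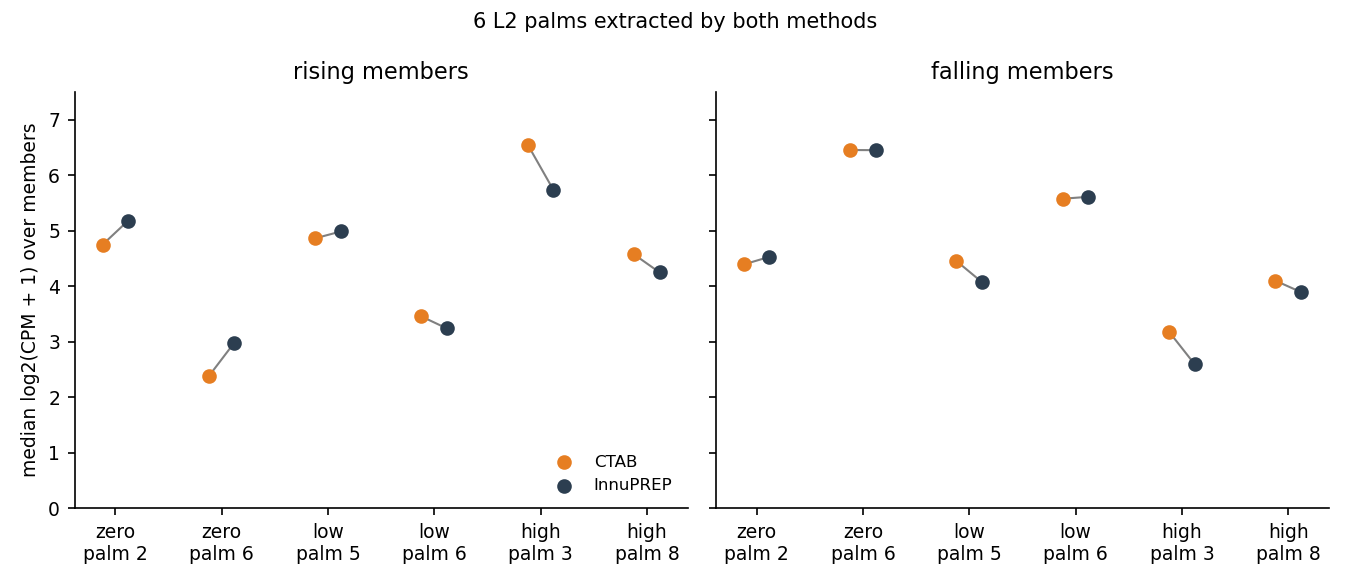
Median log2(CPM + 1) over the rising and the falling members in the CTAB (orange) and InnuPREP (dark) libraries of the same 6 L2 palms. In zero palm 2 the rising median was 4.75 with CTAB and 5.18 with InnuPREP, above both values of zero palm 6, 2.38 and 2.98.

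Inside the L2 groups the members were set against the number of embryoid lines. These are the libraries whose values chose the members, so the slopes are a description and no p is given for any member. The 2 members named for each group had the smallest p in the slope fit, so they are extremes of the set. Over all genes, edgeR slopes on log2 lines gave no call at an adjusted p of 0.05 in the 8 high palms (0% of 20226 genes, 6.46% at an unadjusted p under 0.05) or in the 6 low palms (0% of 20403 genes, 2.31%). DESeq2 called 46 and 7 genes in the same order, no member among them, and limma-voom called 0 in both.

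In the high palms (91 to 534 lines) the median slope per doubling of lines was -0.04 over 19 rising and -0.11 over 77 falling members that passed the filter on low counts. Slopes were positive in 9 of 19 rising members and negative in 53 of 77 falling members, while 48.7% of all genes had a positive slope. In the 6 Jen Avros palms alone the counts were 7 of 19 and 37 of 77, and the falling median was 0.01. Falling members with a negative slope were 40 of 81 without high palm 2 and 39 of 80 without high palm 3. By number of lines from 91 to 534, LOC105050710 had 42.6, 108, 115, 307, 49.2, 196, 161 and 580 CPM. The palm with the most lines was highest and that with the fewest was lowest, with high palm 8 low in between, and the slope was 0.95 ± 0.35 (SE). LOC105042100 had 8.82, 13.2, 5.69, 19.7, 3.15, 17.9, 26.3 and 33.7 CPM in the same order, and a slope of 0.72 ± 0.29 (SE).

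In the low palms (2 to 37 lines) all 100 members passed the filter. Slopes were positive in 3 of 19 rising members and negative in 21 of 81 falling members, while 51.3% of all genes had a positive slope. Without low palm 5, the palm with 2 lines, these counts were 10 of 19 and 40 of 81, beside 53.6% of all genes. The median slope without that palm was 0.003 over rising and 0.004 over falling members, against -0.13 and 0.10 with it. LOC105055554 had 74.8, 175, 561, 564, 342 and 218 CPM in palms with 2, 11, 30, 35, 36 and 37 lines. The palm with 2 lines was lowest, the 4 palms with 30 or more lines spanned 218 to 564 CPM, and the slope was 0.59 ± 0.16 (SE). LOC105048608 had 43.7, 66.9, 125, 94.0, 83.4 and 109 CPM in the same order, and a slope of 0.28 ± 0.09 (SE).

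The count of members on the high side did not follow the lines of the low palms one by one. Low palm 5, with 2 lines, had 64 members there, and low palm 6, with 35 lines, had 9. Both carry the label Yangambi_B.

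The L1 palms were not used to choose the members. In the edgeR fit of low against zero palms, 88 members passed the filter (18 rising, 70 falling), and none of these or of the 18434 genes tested (0%) passed an adjusted p of 0.05. DESeq2 and limma-voom called 0 as well. At an unadjusted p under 0.05 there were 14 members, beside 7.25% of genes. They were 13 higher in low palms, 2 rising and 11 falling, beside 4.57% of genes, and 1 lower, a falling member, beside 2.68%. The falling members at this p were thus mostly higher in the low palms, opposite to their step in L2. The contrasts are unlike: the median was 2 embryoid lines in low palms of L1 and 32.5 in low palms of L2. Genotype labels also changed between zero and low palms in L2, while both L1 groups held both L1 labels. Over all tested members, 16 of 18 rising had a positive log2 fold change (median 0.25) and 20 of 70 falling a negative one (median 0.29), while 56.0% of all genes were positive (median 0.03).

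LOC105053979, a falling member, had a lowest, median and highest CPM of 1.52, 8.75 and 78.6 in low palms, against 2.17, 5.99 and 13.2 in zero palms. Low palms 2, 11 and 12 lay above 30 CPM, and the groups overlapped. Its log2 fold change was 1.51 ± 0.41 (SE; edgeR, unadjusted p = 0.000888, adjusted p = 0.507, 0.102 to 1.00 over the alternatives). LOC105046587 had 2.21, 7.46 and 151 CPM in low palms, against 2.16, 5.71 and 62.7 CPM in zero palms. Here too the groups overlapped, and the medians differed less than the highest values. Its log2 fold change was 2.14 ± 0.59 (SE; edgeR, unadjusted p = 0.000907, adjusted p = 0.507, 0.0824 to 1.00).

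Without low palm 11, 5 members rather than 14 had an unadjusted p under 0.05, beside 6.89% of genes, and the falling median was 0.14. That palm had the highest median over falling members of all L1 palms, 4.62 on the log2(CPM + 1) scale, against a group median of 3.19. With limma-voom, which weights libraries, 37 of 70 falling members were negative and the falling median was -0.07. With the genotype label as a term, 12 of 18 rising members were positive and 15 of 70 falling members negative. With log2(lines + 1) in place of the groups, 3 of 19 rising members were positive and the rising median was -0.12, so the direction over members in L1 depended on the model. Multi-mapped reads made up 21.5% ± 8.26 (SD, n = 15) of low libraries and 24.99% ± 8.19 (SD, n = 17) of zero libraries. With the multi-mapped and plastid shares as terms, 20 members had an unadjusted p under 0.05, beside 6.84% of genes.

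Among the 15 low palms of L1 (1 to 48 lines), most rising members had negative slopes, and none passed the test. Of 91 members tested, none passed an adjusted p of 0.05 for the slope in edgeR, nor did any of 19412 genes (0%). DESeq2 called 2 genes, no member among them, and limma-voom called 0. At an unadjusted p under 0.05 there were 10 members, beside 3.72% of genes. They were 6 rising and 3 falling members that went down with lines, beside 1.69% of genes, and 1 falling member that went up, beside 2.03%. Slopes were negative in 18 of 19 rising members (median -0.23 per doubling) and in 51 of 72 falling members (median -0.06), while 47.3% of all genes had a positive slope. For the falling members this rested on low palm 11, without which 34 of 73 were negative (median 0.005), and with limma-voom 32 of 72 were negative (median 0.02). Rising members were negative in 17 of 19 without that palm and in 18 of 19 with limma-voom. Without low palm 10, 11 rising members went down at an unadjusted p under 0.05, with 15 members in all beside 3.13% of genes. With the genotype label as a term, 16 members had an unadjusted p under 0.05, beside 6.40% of genes: 4 rising and 9 falling went down with lines, and 3 falling went up. In that fit 1 of 19 rising members had a positive slope (median -0.16) and 53 of 76 falling members a negative one (median -0.10). Of all genes, 46.6% were positive there.

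LOC105061065, a rising member, had 13.2 to 161 CPM in the low palms of L1. The palms with 17, 41 and 48 lines, all Dumpy Yangambi Avros, had 14.7, 13.2 and 14.2 CPM. The palm with 27 lines, a Dumpy Avros palm, had 47.3 CPM. The 6 palms with 1 line had 17.6 to 151 CPM. Lines and label were partly tied: the median was 3.5 lines in Dumpy Yangambi Avros low palms and 1 in Dumpy Avros ones. Over all L1 palms, this gene had a median of 26.3 CPM in Dumpy Yangambi Avros and 54.3 CPM in Dumpy Avros. Its slope was -0.42 ± 0.12 (SE; edgeR, unadjusted p = 0.00345, adjusted p = 0.999, 0.237 to 1.00 over the alternatives). In L2 the same gene was highest in the high palms. LOC105056615, a falling member, had a slope of 0.70 ± 0.21 (SE; edgeR, unadjusted p = 0.00376, adjusted p = 0.999, 0.437 to 1.00). In that gene 1 palm, low palm 9 with 41 lines, had 64.6 CPM and the other 14 had at most 6.65 CPM. Over the fits that left out 1 palm each, its slope ran between 0.10 and 0.81.

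**Figure D4:**
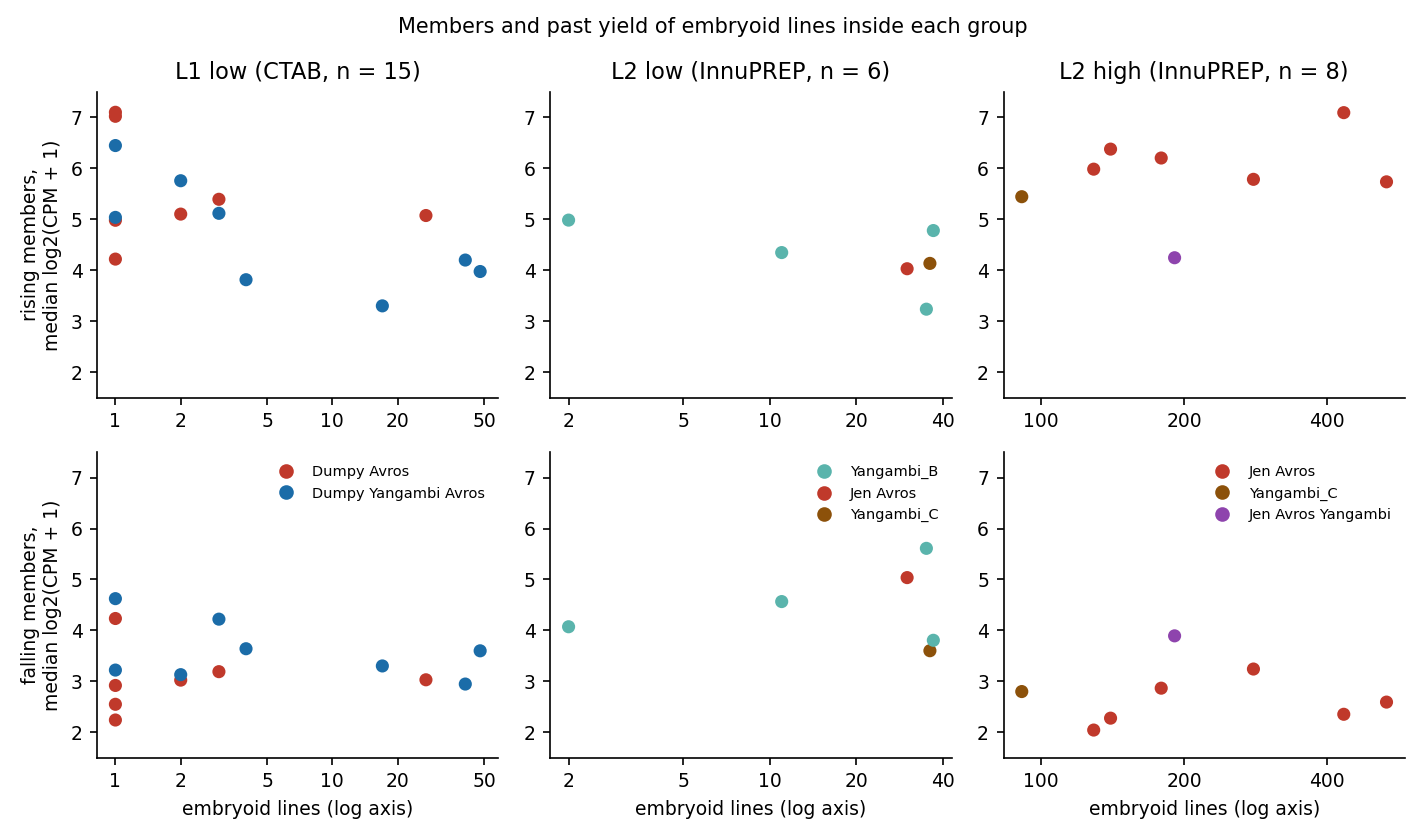
Median log2(CPM + 1) over rising (top) and falling (bottom) members against the number of embryoid lines (log axis) in L1 low, L2 low and L2 high palms, 1 point per palm, colour for the genotype label. The L2 low palm with 2 lines has a rising median of 4.99 and the L2 low palm with 35 lines has 3.24.

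The 2 genotype labels of L1 were compared because labels and groups were tied in L2. In edgeR, Dumpy Avros (n = 12) against Dumpy Yangambi Avros (n = 20), 89 members passed the filter, and none of these or of 18689 genes (0%) passed an adjusted p of 0.05. Limma-voom also called 0, and DESeq2 called 14 genes, 1 member among them. At an unadjusted p under 0.05 there were 25 members, beside 7.04% of genes. The 13 rising ones were all higher in Dumpy Avros, beside 3.71% of genes, and the 12 falling ones were all lower, beside 3.32%. Over all tested members, 17 of 18 rising were higher in Dumpy Avros (median log2 fold change 0.87) and 65 of 71 falling were lower (median -0.44), while 44.2% of all genes were higher.

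LOC105054831, a rising member, had a lowest, median and highest CPM of 126, 503 and 1585 in Dumpy Avros palms, against 123, 199.998 and 755 in Dumpy Yangambi Avros palms. The ranges overlapped and the lowest values were alike. The log2 fold change was 1.43 ± 0.33 (SE; edgeR, unadjusted p = 0.000114, adjusted p = 0.252), and DESeq2 gave the lowest adjusted p of the 8 alternatives, 0.0247, in a range up to 0.959. LOC105055554 had 9.76, 82.5 and 229 CPM in Dumpy Avros palms, against 19.8, 174 and 2413 CPM in Dumpy Yangambi Avros palms. In this gene low palm 11 gave the 2413 CPM, and the next palm below it had 779 CPM. The ranges overlapped. Its log2 fold change was -2.12 ± 0.63 (SE; edgeR, adjusted p = 0.528, 0.0664 to 0.996 over the alternatives). LOC105046587 had 2.21, 4.52 and 33.9 CPM in Dumpy Avros palms, against 2.16, 8.10 and 151 CPM in Dumpy Yangambi Avros palms, a log2 fold change of -2.18 ± 0.67 (SE; edgeR, adjusted p = 0.541).

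The palm medians overlapped between the labels as well. Over rising members the palm median was 5.58 ± 1.08 (SD, n = 12) in Dumpy Avros and 4.66 ± 0.78 (SD, n = 20) in Dumpy Yangambi Avros, on the log2(CPM + 1) scale. Over falling members it was 3.04 ± 0.52 and 3.50 ± 0.39 in the same order. Among zero palms alone, 17 of 18 rising members were higher in Dumpy Avros and 62 of 74 falling members were lower, while 49.0% of all genes were higher. There 16 members (11 rising, 5 falling) had an unadjusted p under 0.05, beside 5.04% of genes. Among low palms alone the counts were 16 of 18 and 60 of 70, while 42.8% of all genes were higher, and 12 members (2 rising, 10 falling) had an unadjusted p under 0.05, beside 4.16% of genes. Leaving out each palm in turn, with differences of mean log2(CPM + 1), gave 17 to 18 rising members higher and 61 to 66 falling members lower.

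The members are not independent of one another, and these counts over members are therefore no replicate check. Across the 32 L1 palms the median Pearson r over pairs was 0.59 among rising members, 0.21 among falling members and -0.19 between the sets, against 0.05 over all gene pairs. Centred within genotype label and group, these were 0.56, 0.19, -0.14 and 0.05. All values of a palm share 1 library and its depth. Multi-mapped reads made up 21.2% ± 9.30 (SD, n = 12) of Dumpy Avros libraries and 24.6% ± 7.58 (SD, n = 20) of Dumpy Yangambi Avros libraries. With the multi-mapped and plastid shares as terms, 18 of 18 rising members were higher in Dumpy Avros, 63 of 71 falling members were lower, and 21 had an unadjusted p under 0.05, beside 7.00% of genes.

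**Figure D5:**
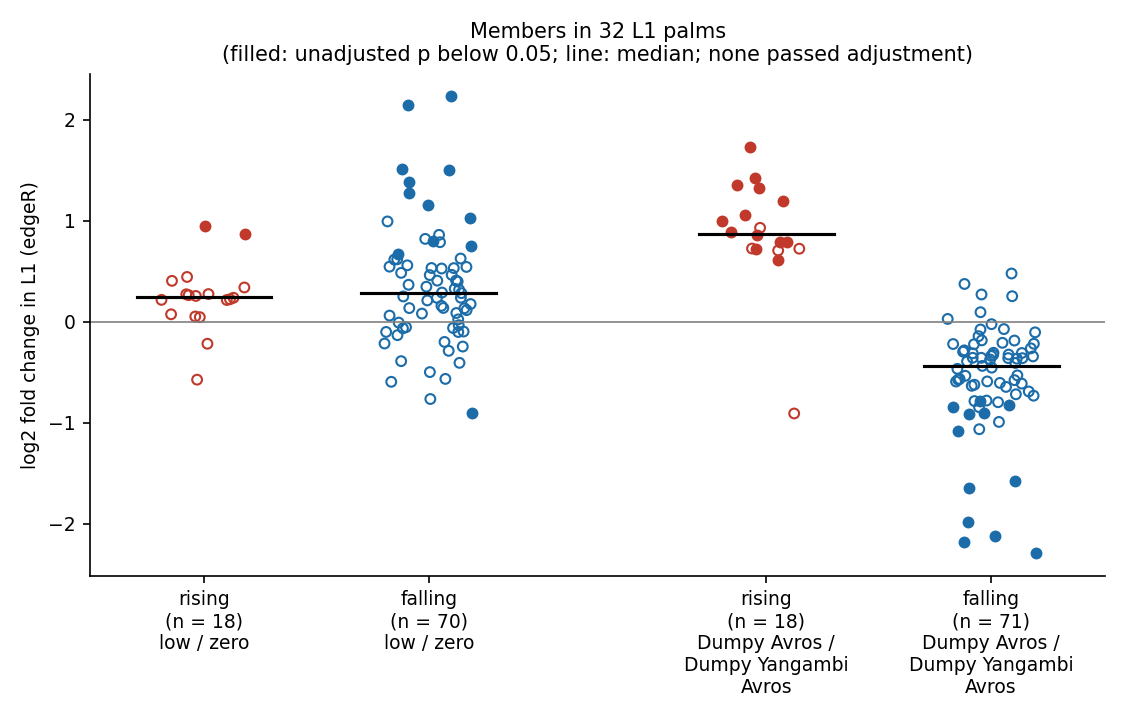
Log2 fold change (edgeR) of each tested member in L1, for low over zero palms and for Dumpy Avros over Dumpy Yangambi Avros palms, rising members in red and falling in blue, with a line at the median and filled points at an unadjusted p under 0.05. No point passed the adjusted threshold; for Dumpy Avros over Dumpy Yangambi Avros the medians were 0.87 for rising and -0.44 for falling members.

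Levels of the members in L1 palms covered much of the range seen in L2 for rising members and its lower end for falling members. Palm medians over rising members were 3.30 to 7.10 in low and 3.64 to 7.02 in zero palms of L1, on the log2(CPM + 1) scale. Over falling members they were 2.24 to 4.62 in low and 2.39 to 3.82 in zero palms of L1. All 17 zero palms of L1 thus lay below every zero palm of L2, 4.53 to 6.45, in the falling members. The rule chose these genes for a high level in L2 zero palms. A lower level in palms it did not use is therefore partly built in, and nothing is read from it. LOC105046587, with a median of 2074 CPM in L2 zero palms, had 5.71 CPM in L1 zero palms, while LOC105055554 had 1866 CPM in L2 and 103 CPM in L1. The agencies also differed in genotype labels and read length, which cannot be told apart here. Extraction differed too, as the L2 values above are from InnuPREP libraries. With CTAB, L2 zero palms 2 and 6 had medians over falling members of 4.39 and 6.45, above all 17 zero palms of L1. In those CTAB libraries LOC105046587 had 264 and 1883 CPM. The palms of those libraries were among the palms the rule used, so the same limit holds for them. The cause of the difference between agencies was not tested.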

How the data were processed

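The authors deposited raw read counts per gene for 58 libraries from 52 palms. The submitters' processing notes list bcl2fastq, STAR 2.7.2b and HTSeq 0.11.2; genome build, strand setting and filters are not given in the sources used here. The 5 HTSeq summary lines were left out. CPM was computed from gene totals.

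Tests ran over all genes with edgeR 4.0.16 (R 4.3.3; TMM, filterByExpr, robust quasi-likelihood) and Benjamini-Hochberg adjustment, and scripts were tested on simulated counts. Alternatives used limma 3.58.1 (voom), DESeq2 1.42.0, other scalings, filters and terms, and each palm left out. Library share terms, the genotype term in the L1 slope, fits of zero or low palms alone and overlaps without single palms were chosen after seeing the data. CTAB and InnuPREP libraries were paired by palm identifier. Members and lists were chosen with earlier results of these data known.

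Named genes were the first 10 rising and falling by rank, the 2 of highest median CPM in each direction, those at the limit, neighbouring members, and in each test the members of smallest p (2, or up to 3 called per direction). LOC105056899 was named after its annotation was seen. Planned product lists and motif searches were not run, since they need product names and sequences. Near-identical or overlapping genes have uncertain counts.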

Additional observations from a re-analysis of the deposited data

Results flagged for a closer look

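Chance marks about 1 in 20 groups of this size, and 8 of 66 groups were marked because 1 palm lay far from the others: its gap to the nearest palm, as a share of the group's range, passed Dixon's critical value (0.625 for 6 palms, 0.526 for 8). Zero palm 2 was that palm in 5 cases of L2 InnuPREP libraries. The share was 0.641 for its median over rising members, 0.645 for its median over falling members, 0.694 for LOC105051978, 0.745 for LOC105042100 and 0.63 for LOC105046587. In LOC105042100 it had 6.62 CPM, and the other 5 zero palms had at most 0.983 CPM. High palm 8 was that palm in 3 cases, with shares of 0.616 for LOC105051978, 0.606 for LOC105033413 and 0.663 for LOC105048608. In LOC105048608 it had 179 CPM, and the other 7 high palms had at most 24.5 CPM. Both palms had a CTAB library with a similar number of members on the high side, 45 for zero palm 2 and 59 for high palm 8. The cases share palms and genes, so they are not separate.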

How the results depend on the processing

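For the counts of calls and the member list, 239 alternative values stayed within 1.5 times and 13 moved. Many of the unchanged values set 0 calls against 0 calls, since the main fit called 0 genes in every comparison but CTAB against InnuPREP. Staying at 0 does not show that a result is stable. Medians over members with no call did change sign: in L1 low against zero the rising one was -0.12 with log2(lines + 1) and the falling one -0.07 with limma-voom, and medians of slopes in L1 low, L2 high and L2 low palms also crossed 0. DESeq2 called more genes than edgeR in 5 comparisons: 2 for the L1 slope, 14 genes and 1 member for the L1 genotype labels, 46 for the L2 high slope, 7 for the L2 low slope, and 343 genes and 34 members for CTAB high against zero. It called 0 in L1 low against zero, as edgeR did, and fewer for CTAB against InnuPREP, 10500 genes and 66 members. With no filter, edgeR called 5 genes for the L1 labels and 3 for CTAB high against zero. With 1 palm left out, genes called ran from 0 to 1 in L1 low against zero (1 without low palm 9) and from 0 to 2 in the L2 high slope (2 without high palm 2). CTAB against InnuPREP without the replicate block, which leaves differences between palms in the residual, gave 2875 of 19172 genes and 0 of 100 members. The cause was not tested. The members shared 98 genes with the first 100 under TMM scaling, 92 with log2(CPM + 0.5), 72 with group means, 76 without the Yangambi_C palms, and 78 to 94 with 1 L2 palm left out, when 600 to 822 genes met the rule. With 2 palms per group in CTAB, and 6 or 8 palms per slope, a missing call says little about stability.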
